A study of Mus musculus with 16 samples.

Results

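The genes of the Gli family, Gli1, Gli2 and Gli3, were followed through the called regions of Gli2 binding, H3K27ac and H3K36me3 in mouse medulloblastoma. Members were all regions of the 6 deposited peak lists that shared at least 1 base with a fixed window of mouse build mm9. The windows were chromosome 10 at 126.70 to 126.85 Mb for Gli1 (150 kb), chromosome 1 at 120.68 to 121.00 Mb for Gli2 (320 kb) and chromosome 13 at 15.50 to 15.87 Mb for Gli3 (370 kb). They held 201 of the 209254 regions in the lists, with 45 in the Gli1, 141 in the Gli2 and 15 in the Gli3 window. Chromatin immunoprecipitation and sequencing (ChIP-seq) had been done on tumours taken at postnatal day 13 from mice of 2 genotypes. One group overexpressed SmoM2, an always active form of the Hedgehog signal transducer Smoothened. The other was a Sufu;Spop double knockout (DKO). The sources used here do not give the driver of the transgene or of the deletions, nor whether the libraries of a group came from separate animals. Each genotype and antibody had 2 libraries and 1 peak list, so no difference between genotypes has a replicate check. The lists give no read numbers, so their depth is unknown.

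Gli proteins are the zinc finger transcription factors at the end of the Hedgehog pathway. Gli1 acts as an activator and its gene is a direct target of the pathway, widely used as a readout of its activity. Gli2 is the main activator of the pathway and Gli3 acts mainly as a repressor. Both deleted genes act on Gli proteins, since Sufu holds them back in the cytoplasm and Spop brings Gli2 and Gli3 to a Cul3 ubiquitin ligase. Granule neuron progenitors of the cerebellum divide in response to Sonic hedgehog, and medulloblastomas of the Hedgehog type arise from them. H3K27ac is found at promoters and enhancers in use, whereas H3K36me3 follows transcription through gene bodies.

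The windows are wider than the genes, and the positions of genes, exons and introns on mm9 were not analysed here. In the order of protein-coding genes that RefSeq gives on GRCm38.p6, Gli1 follows Mars1 and Arhgap9 and is followed by Inhbe, Inhbc and R3hdm2. Gli2 lies between Tfcp2l1 and Inhbb, and Gli3 between AW209491 and Inhba. A region of the Gli1 window, where neighbours are close, need therefore not belong to Gli1. For 2 of the 3 Gli genes the table of RefSeq promoters used here (GRCm38.p6) held an entry, and the 250 bases before their starts are shown, because they are the gene-anchored sequence at hand for the loci described here. The binding site of Gli proteins, GACCACCCA or TGGGTGGTC on the other strand, was searched for with no mismatch. Its inner letters CCACCC or GGGTGG, which any such site contains, were searched for as well, a search added after seeing the data, and are in capitals. The Gli2 promoter is at chr1:119053620-119053869 on the minus strand and the Gli3 promoter at chr13:15463473-15463722 on the plus strand of GRCm38.p6, positions that cannot be set against the mm9 positions of the peaks.
Gli2: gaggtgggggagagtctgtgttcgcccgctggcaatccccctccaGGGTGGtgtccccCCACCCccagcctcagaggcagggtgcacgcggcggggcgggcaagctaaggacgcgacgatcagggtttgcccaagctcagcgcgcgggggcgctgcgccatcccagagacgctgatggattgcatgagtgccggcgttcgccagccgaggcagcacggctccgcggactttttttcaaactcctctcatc
Gli3: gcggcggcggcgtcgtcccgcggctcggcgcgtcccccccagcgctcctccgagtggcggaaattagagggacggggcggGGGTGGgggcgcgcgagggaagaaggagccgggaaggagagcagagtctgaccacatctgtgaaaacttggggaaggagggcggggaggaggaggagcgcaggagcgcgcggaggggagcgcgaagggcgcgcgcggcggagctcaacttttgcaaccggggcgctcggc
The whole site was in neither sequence, and 74 of 32851 promoters of the table (0.225%) held it in this stretch. The inner letters occurred at 2 places in the Gli2 and at 1 place in the Gli3 promoter. They occurred in 28.1% of all promoters of the table. These letters describe the sequence and show nothing about binding.

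The lists as a whole set the background. The DKO list held 9.64 times as many Gli2 peaks as the SmoM2 list, with 1426 and 148 peaks on the chromosomes used. H3K27ac covered 1.33 times and H3K36me3 1.19 times as many bases in DKO as in SmoM2 tumours over all chromosomes. The ratios of the windows are to be read against these.

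Gli2 was called at the Gli1 and Gli2 loci in DKO tumours and at none of the 3 loci in SmoM2 tumours. The Gli1 window held 3 DKO peaks, the Gli2 window 5 and the Gli3 window none, whereas the SmoM2 list had no peak in any window. The DKO list is the longer one, and among its 148 highest peaks, as many as the SmoM2 list holds, the Gli1 window had 0 and the Gli2 window 3. The nearest SmoM2 peak outside a window was 1837 kb from the Gli2, 2490 kb from the Gli3 and 5839 kb from the Gli1 window. Absence from a list means that no peak was called and does not show that Gli2 was not bound. Over the whole lists, 5.96% of the DKO peaks were also called in SmoM2 tumours. The count of 0 of 8 is close to that background and allows a share of up to 32.4% (Wilson 95% interval), so it is no result about these loci.

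**Figure D1:**
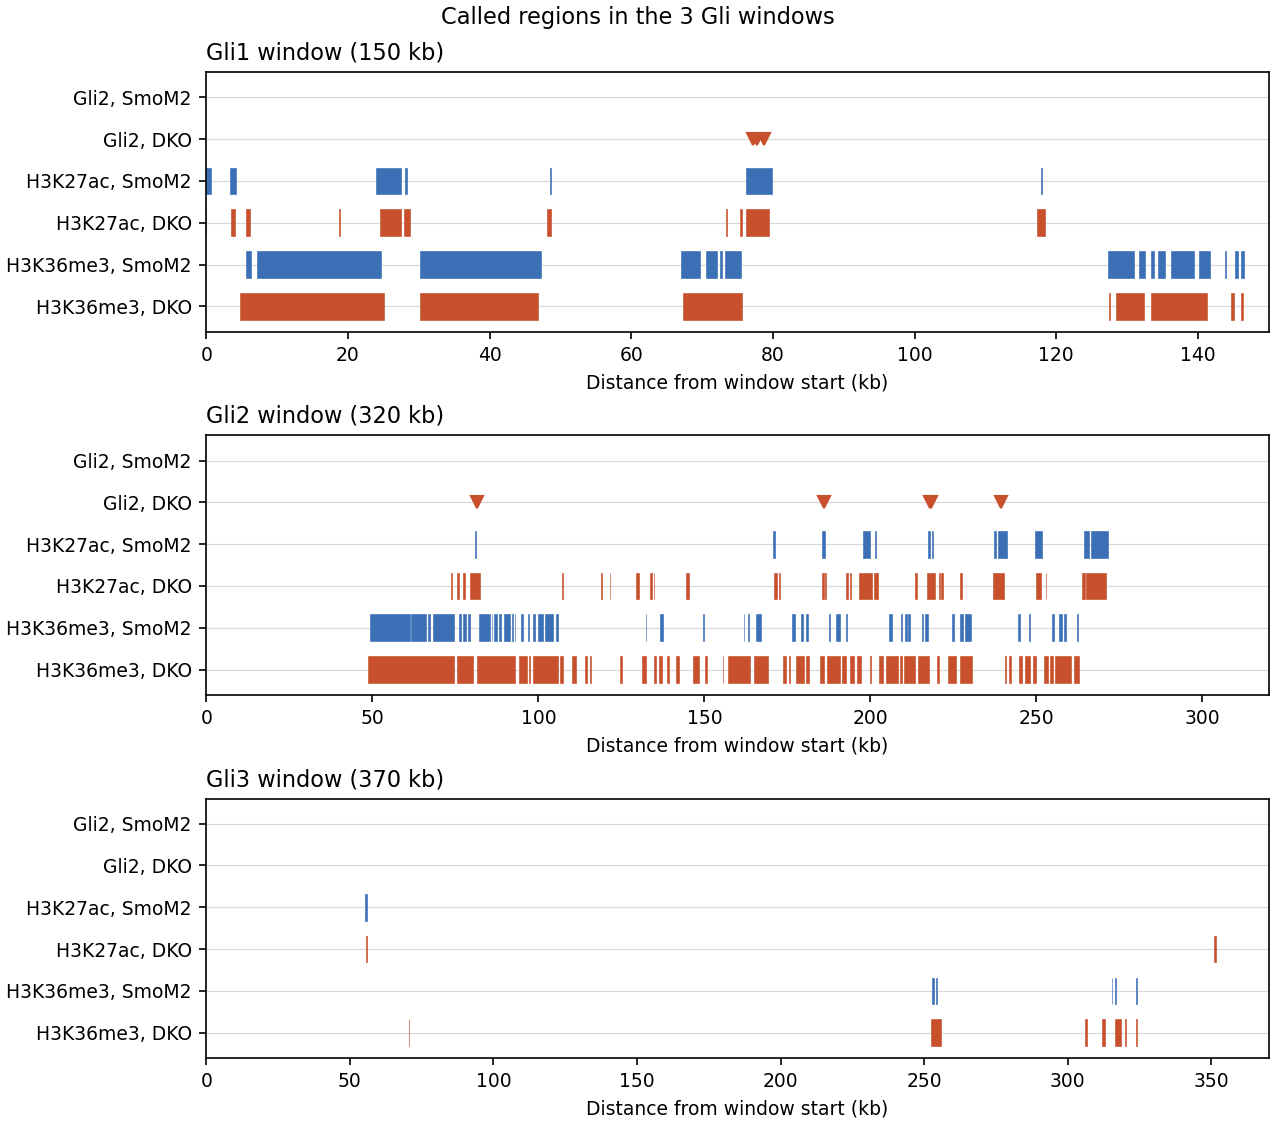
Called regions of each list along the 3 windows, with the distance from the window start in kb on the horizontal axis. Triangles are Gli2 peaks and bars are H3K27ac or H3K36me3 regions, blue for SmoM2 and red for DKO tumours. The DKO rows carry 3 Gli2 peaks in the Gli1 and 5 in the Gli2 window, the H3K36me3 bars of the Gli2 window are denser in DKO tumours, and the Gli3 window is almost empty.

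At the Gli1 locus the DKO peaks formed a tight group. They lay at 126777077–126777209, 126777662–126777963 and 126778561–126778848 on chromosome 10, and their summits were 647 and 1015 bp apart. The authors' fold enrichment over the local background was 15.7, 11.3 and 9.13 in this order. By −log10 q, the significance that the peak caller assigned, they ranked 260, 486 and 786 of 1426 within the DKO list. The 3 peaks were thus of moderate to high rank, and the one at the lowest coordinate was the strongest. From the deposited fold and p, 35, 29 and 20 fragments were recovered at these summits over a background of 1.30, 1.64 and 1.30 fragments.

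At the Gli2 locus, whose product is the immunoprecipitated protein itself, the 5 DKO peaks spread from 120761279 to 120919371. The strongest was at 120866010–120866267 on chromosome 1, with a fold enrichment of 24.2 and a rank of 56 within the DKO list. The peaks at 120897975–120898169 (fold enrichment 21.3, rank 99) and 120919187–120919371 (18.5, rank 121) were also in the highest 10% of the list. The peak at 120761279–120761490 (14.4, rank 329) stood apart from the others by 105 kb. A weaker peak at 120898286–120898459 (6.09, rank 1253) lay 311 bp from the summit of its neighbour. These 5 summits held 63, 48, 48, 32 and 13 fragments, in the order described. Of the 142 DKO peaks in the highest 10%, 43 (30.3%) were also called in SmoM2 tumours, and none of the 3 at the Gli2 locus was. With only 3 peaks, this count is no result about the locus.

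No Gli2 peak of either genotype lay in the Gli3 window. The nearest DKO peak was 882 kb beyond its edge, at 16751807–16751933 on chromosome 13. The nearest DKO peak outside the Gli2 window was 11.9 kb beyond its edge, at 121011860–121012012 (fold enrichment 10.9), and it falls outside the count of 5. Of the 26 stretches of 10 kb in the 3 windows that held H3K27ac in DKO tumours, 5 also held a DKO Gli2 peak. Of all such stretches in the genome, 4.21% did. In SmoM2 tumours none of 17 acetylated stretches held a Gli2 peak, against 0.564% of all acetylated stretches.

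All 8 Gli2 peaks overlapped H3K27ac of the tumours they were called in (100%, Wilson 95% interval 67.6–100%). The share of all DKO Gli2 peaks that overlapped H3K27ac of DKO tumours was 53.0%. With H3K27ac of SmoM2 tumours, where Gli2 was not called, 7 of the 8 peaks overlapped (87.5%, 52.9–97.8%), compared with 48.9% of all DKO peaks. The same 7 overlapped H3K27ac of both genotypes, as did 41.3% of all DKO peaks. An overlap of 1 base was enough for these counts, and some were partial. With at least 50% of a peak required inside H3K27ac of DKO tumours, the count was 7 instead of 8. The summits at 120761403 and 120898358 lay 70 and 92 bp outside the SmoM2 regions that their peaks overlapped. The 8 peaks are not 8 separate sites, since the 3 at Gli1 shared 1 acetylated region and 2 at Gli2 shared another in DKO tumours. Counted as acetylated sites, there were 5. The intervals treat the 8 peaks as separate, so they are too narrow to set the loci apart from the whole list. No peak overlapped H3K36me3 of either genotype, as was the case for all but 2.31% (DKO marks) and 2.66% (SmoM2 marks) of the DKO list.

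**Figure D2:**
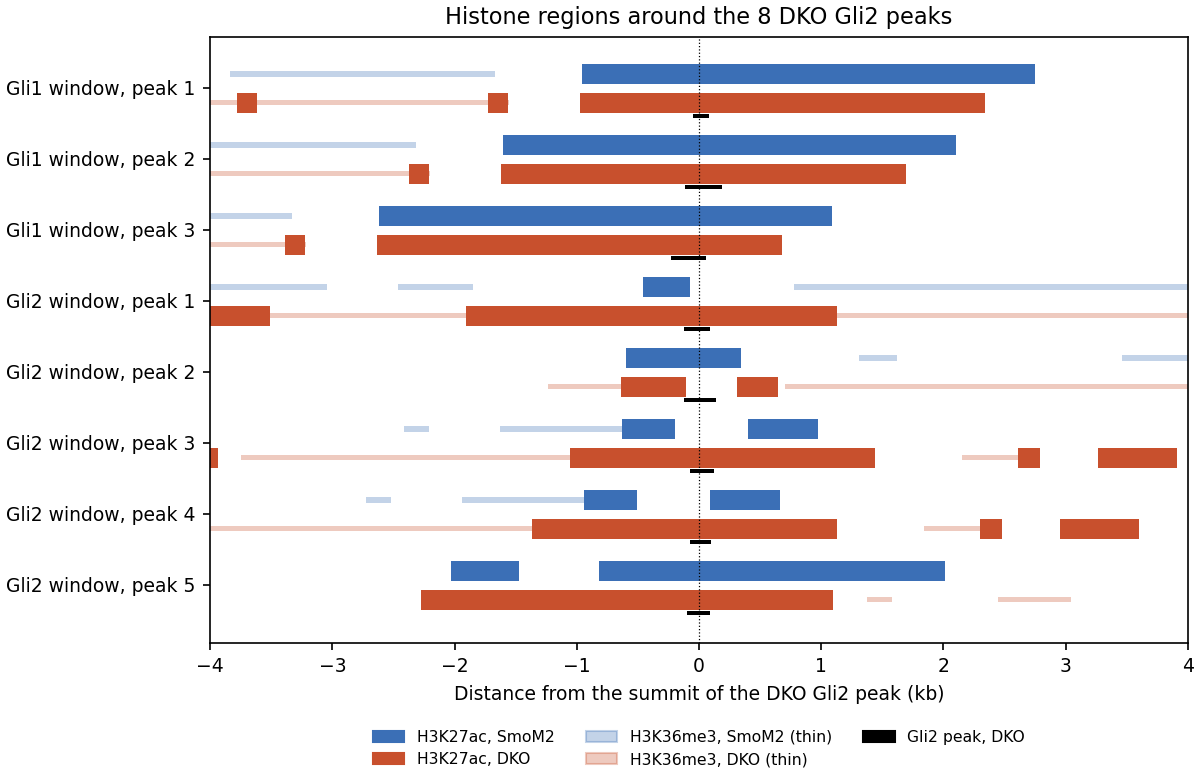
H3K27ac (thick bars) and H3K36me3 (thin pale bars) regions within 4 kb of the 8 DKO Gli2 summits, 1 row per peak in the order of coordinates, with the distance from the summit in kb. Blue bars are SmoM2 and red bars DKO regions, and the short black bar is the Gli2 peak. The 3 summits at Gli1 lie inside wide H3K27ac regions of both genotypes, while at Gli2 the SmoM2 regions are mostly narrower than the DKO regions.

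The acetylated surroundings of the Gli2 summits differed from site to site. At Gli1 the shared region measured 3714 bp in SmoM2 (126776169–126779882) and 3319 bp in DKO tumours (126776155–126779473). It held all 3 summits in both genotypes, although Gli2 was called there only in the DKO list. Around the isolated summit at 120761403, the H3K27ac region was 390 bp wide in SmoM2 and 3037 bp in DKO tumours, and the SmoM2 region ended 70 bp before the summit. The summit at 120898047 fell in a gap of the SmoM2 list, 197 bp from a region of 437 bp, and inside a DKO region of 2501 bp. The opposite was seen at the strongest summit, 120866129, which lay inside a SmoM2 region of 939 bp but in a gap of the DKO list, 103 bp from a region of 534 bp. At the summit at 120919282 both genotypes had a wide region, of 2826 bp in SmoM2 and 3375 bp in DKO tumours.

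As deposited, both histone marks covered similar lengths of the Gli1 window in the 2 genotypes. H3K27ac covered 9.29 kb of the window in SmoM2 (7 regions, 6.19% of the window) and 10.4 kb in DKO tumours (11 regions, 6.93%), a ratio of 1.12 that lies below the ratio of 1.33 of the whole lists. The length-weighted mean of the authors' fold enrichment was 6.68 for SmoM2 and 7.32 for DKO tumours. All 7 SmoM2 regions overlapped a DKO region, and 7 of the 11 DKO regions overlapped a SmoM2 region. Over the whole lists, 73.4% of SmoM2 and 52.7% of DKO H3K27ac regions did so. The 4 DKO regions without a counterpart were 108 to 579 bp wide and summed to 1021 bp. When regions at most 10 kb apart were joined, the H3K27ac ratio of the Gli1 window was 1.88 (12.7 kb in SmoM2 against 23.9 kb in DKO tumours), against 1.44 for the whole lists.

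The acetylated region that carries the Gli2 peaks was the strongest of the Gli1 window in both genotypes. It ranked 337 of 21630 by −log10 q in the SmoM2 list (the highest 1.56%) and 378 of 29504 in the DKO list (the highest 1.28%). Ranks from lists of different length show no change between them. The next widest regions in both genotypes lay at 126723910–126727449 in SmoM2 (3540 bp) and 126724461–126727474 in DKO tumours (3014 bp), followed by 126703401–126704259 (859 bp) in SmoM2 and 126817330–126818416 (1087 bp) in DKO tumours. Among stretches of 10 kb, the largest excess of acetylation in DKO tumours was at 126810001–126820000, with 0.155 kb in SmoM2 against 1.09 kb in DKO tumours. The stretch with the Gli2 peaks, 126770001–126780000, had 3.71 kb in SmoM2 against 3.65 kb in DKO tumours.

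H3K36me3 covered 53.5 kb of the Gli1 window in SmoM2 (35.7%) and 58.0 kb in DKO tumours (38.7%), a ratio of 1.08 against 1.19 for the whole lists. With regions at most 10 kb apart joined, the ratio was 1.04, against 1.03. With regions under a −log10 q of 5 left out, SmoM2 tumours had 0 kb and DKO tumours 16.7 kb of H3K36me3 in the Gli1 window. The ratio of the whole lists was then 3.98. The 16.7 kb were the DKO region at 126730201–126746867 (−log10 q of 6.11). The SmoM2 region at nearly the same place, 126730229–126747206 (17.0 kb), fell just under the limit at 4.97. This contrast thus reflects the limit and not an absence of the mark in SmoM2 tumours. Neither ratio of the Gli1 window reached 1.5 with the regions as deposited, as 10.3% of all stretches of 150 kb did for H3K36me3 (marked over at least 10% on average) and 34.6% for H3K27ac (at least 1%). The bases were almost all shared, 94.7% of those of SmoM2 and 87.3% of those of DKO tumours. Regions numbered 16 in SmoM2 and 8 in DKO tumours, because stretches divided in the SmoM2 list were continuous in the DKO list. The block that ended next to the Gli2-bound acetylated region was an example. It consisted of 4 SmoM2 regions from 126767084 to 126775459 (6.59 kb marked) and of 1 DKO region at 126767340–126775573 (8.23 kb). The length-weighted mean fold enrichment was 4.30 for SmoM2 and 4.41 for DKO tumours.

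Differences of at least 1.5-fold were then counted over stretches of 10 kb. Of 6 stretches with H3K27ac, 3 had at least 1.5-fold more acetylated bases in DKO tumours, against 51.2% of all acetylated stretches of the genome, and none had as much more in SmoM2 tumours (20.0% of all). The acetylation count is near that background and is no result about Gli1. Of 10 stretches with H3K36me3, none had at least 1.5-fold more bases in DKO tumours, against 33.7% of all stretches with the mark. In the other direction 1 of 10 was called, at 126820001–126830000 with 2.64 kb in SmoM2 against 1.72 kb in DKO tumours, against 16.7% of all. The stretches with the largest excess of H3K36me3 in DKO tumours were 126830001–126840000 (6.45 kb in SmoM2 against 9.03 kb in DKO tumours) and 126700001–126710000 (3.65 and 5.32 kb).

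The Gli2 locus differed more between genotypes than the Gli1 locus. With the regions as deposited, both histone marks covered more bases in DKO tumours, H3K36me3 more so. H3K27ac covered 17.6 kb of the window in SmoM2 (12 regions, 5.49%) and 31.8 kb in DKO tumours (29 regions, 9.95%), a ratio of 1.81 against 1.33 for the whole lists. H3K36me3 covered 55.6 kb in SmoM2 (47 regions, 17.4%) and 117 kb in DKO tumours (48 regions, 36.7%), a ratio of 2.11 against 1.19. With regions under a −log10 q of 5 left out, H3K27ac covered 0.39 kb in SmoM2 against 21.8 kb in DKO tumours (a ratio of 56.0 against 1.70) and H3K36me3 0 and 25.9 kb. The SmoM2 side of that H3K27ac ratio was only the region at 120760944–120761333, with a −log10 q of 5.10. The widest SmoM2 region, of 4994 bp, was left out at 4.64, so the size of this ratio depends on the limit chosen. With regions joined within 10 kb the H3K27ac ratio was 3.46 against 1.44. Among all stretches of 320 kb marked over at least 10% of their length on average, 5.33% had at least 1.5-fold more H3K36me3 in DKO tumours. For H3K27ac, with a minimum of 1%, the share was 33.6%, so an acetylation ratio of at least 1.5 was common. Neither ratio has a test, since each genotype has 1 list per mark, and the excess of H3K36me3 in this stretch of chromosome 1 was known when the loci were chosen. The authors' fold enrichment, averaged by length, was 4.26 for SmoM2 and 5.67 for DKO tumours in H3K27ac and 3.44 and 3.66 in H3K36me3. By −log10 q, the median H3K36me3 region of the window ranked at 63.4% of its list in SmoM2 and at 52.4% in DKO tumours. Many of these regions were thus weak, and how far weak regions called in only 1 list made up the excess was not tested.

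**Figure D3:**
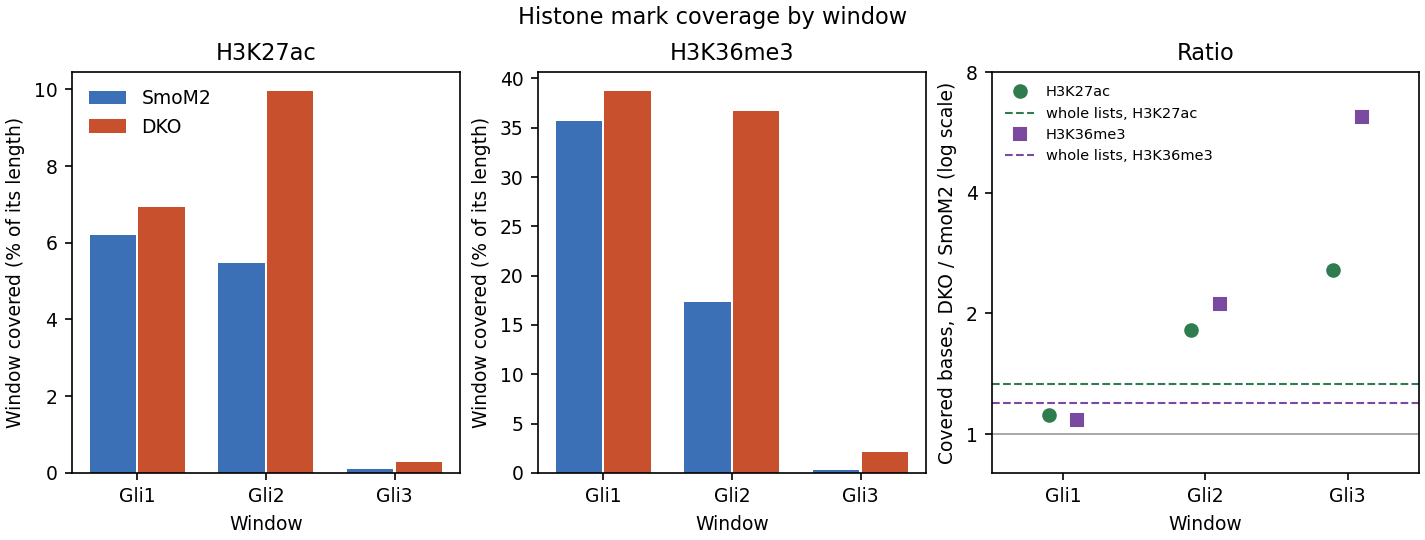
Share of each window covered by H3K27ac (left) and H3K36me3 (centre) in SmoM2 (blue) and DKO (red) tumours, in % of the window length, and the DKO to SmoM2 ratio of covered bases (right, log scale) with the ratios of the whole lists as dashed lines. The ratios are 1.12 and 1.08 at Gli1, 1.81 and 2.11 at Gli2, and 2.56 and 6.19 at Gli3, where coverage is below 2.1% of the window. Each bar or point is 1 list or pair of lists, with no error.

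All 12 SmoM2 acetylated regions of the Gli2 locus overlapped a DKO region, against 73.4% over the whole list. In the other direction 11 of 29 DKO regions (37.9%, 22.7–56.0%) overlapped a SmoM2 region, against 52.7% over the whole list, which lies within the interval, so this count is no result about the locus. The 18 DKO regions without a counterpart were narrow, with a median of 413 bp and a sum of 7.86 kb. The 11 others had a median of 1738 bp. By −log10 q within its own list, the highest DKO region ranked 629 of 29504 and the highest SmoM2 region 3527 of 21630.

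The widest acetylated region of the Gli2 locus lay towards its high coordinates in both genotypes. It lay at 120946445–120951438 in SmoM2 (4994 bp, fold enrichment 4.74) and at 120945104–120950985 in DKO tumours (5882 bp, 8.70). RefSeq gives Gli2 on the minus strand of GRCm38.p6, and where the gene starts on mm9 was not analysed here. In SmoM2 tumours the next widest regions were 120918466–120921291 (2826 bp) and 120877841–120880005 (2165 bp). In DKO tumours they were 120876654–120880627 (3974 bp) and 120917004–120920378 (3375 bp), which overlap those of SmoM2 tumours. The latter region contains the Gli2 peak with the summit at 120919282.

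The excess of acetylation was not even along the Gli2 locus, divided into 4 parts of 80 kb. In the part of highest coordinates, 120920001–121000000, SmoM2 tumours had 9.89 kb and DKO tumours 8.92 kb, a ratio of 0.902 against 1.33 for the whole lists. In the part below it, 120840001–120920000, which held 4 of the 5 Gli2 peaks, they had 7.27 and 15.3 kb. In the part at 120760001–120840000 they had 0.39 and 5.71 kb, and in that of lowest coordinates 0 and 1.92 kb. The acetylated length was thus similar at the end with the widest region and higher in DKO tumours over the rest of the window. The largest differences over 10 kb were at 120760001–120770000 (0.39 kb in SmoM2 against 2.53 kb in DKO tumours), 120890001–120900000 (1.01 and 3.07 kb) and 120870001–120880000 (2.16 and 4.09 kb). Both of the former hold Gli2 peaks of DKO tumours, and the third holds none. In the opposite direction the largest difference was at 120920001–120930000, with 1.69 kb in SmoM2 against 0.623 kb in DKO tumours.

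**Figure D4:**
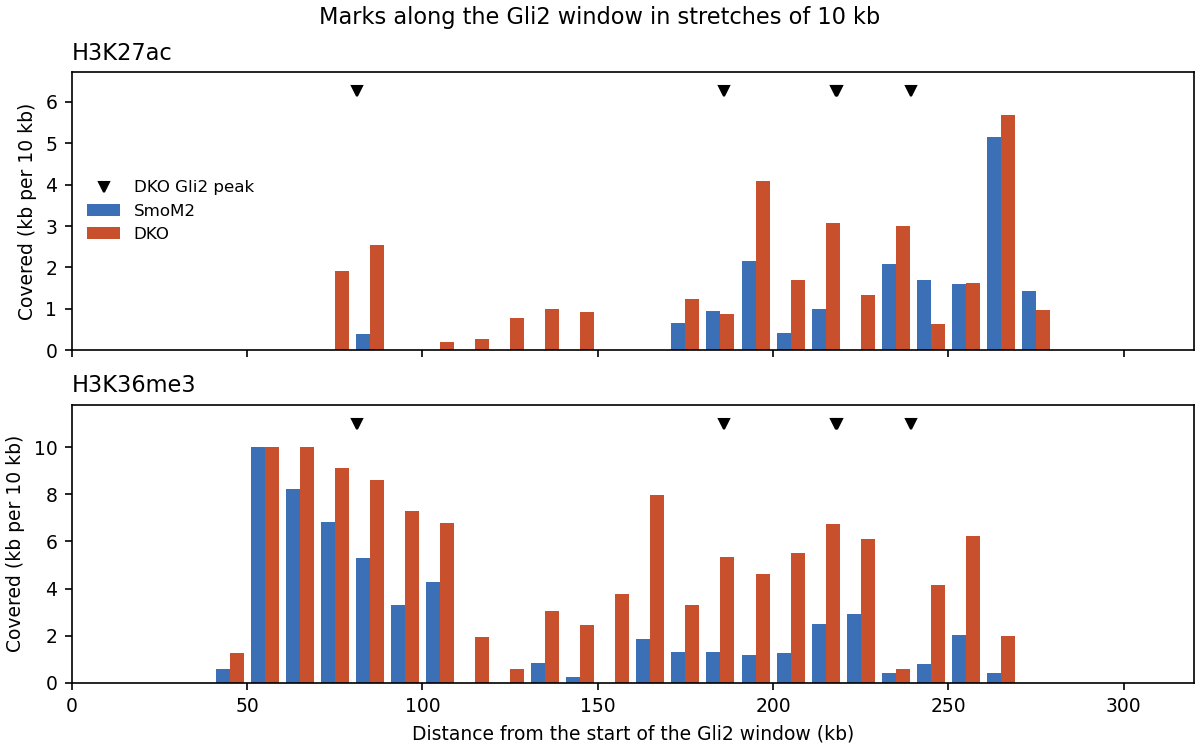
Kilobases covered by H3K27ac (top) and H3K36me3 (bottom) in each stretch of 10 kb along the Gli2 window, in SmoM2 (blue) and DKO (red) tumours, with triangles at the DKO Gli2 summits. H3K27ac is similar at the right end, where both genotypes have over 5 kb in 1 stretch. H3K36me3 fills the same stretch at the left in both genotypes and covers more bases in DKO tumours in the 22 other marked stretches.

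H3K36me3 of the Gli2 locus had nearly the same edge at low coordinates in both genotypes and differed more towards high coordinates. This order is by coordinate and not by direction of transcription. The lowest marked position was 120729412 in SmoM2 and 120728721 in DKO tumours, and both lists were marked over the whole of 120730001–120740000. In the part of lowest coordinates, 120680001–120760000, it covered 25.6 kb in SmoM2 against 30.4 kb in DKO tumours, a ratio of 1.19 that equals that of the whole lists to 3 digits. The ratio was 2.47 in the next part (14.0 and 34.5 kb), 3.16 in the third (12.7 and 40.2 kb) and 3.82 in the part of highest coordinates (3.23 and 12.4 kb). The marked length was thus greatest in the part of lowest coordinates in SmoM2 tumours and in the third part in DKO tumours.

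Single stretches were counted next. Of 23 stretches of 10 kb with H3K36me3 at the Gli2 locus, 22 had more marked bases in DKO tumours and 1 was equal. The excess was at least 1.5-fold in 19 of the 23, against 33.7% of all stretches with the mark, and no stretch was called towards SmoM2 tumours. The largest difference was at 120840001–120850000, with 1.84 kb in SmoM2 against 7.97 kb in DKO tumours. It was followed by 120880001–120890000 (1.25 and 5.52 kb) and 120890001–120900000 (2.49 and 6.75 kb), the latter with 2 Gli2 peaks. For H3K27ac, 12 of 18 stretches had at least 1.5-fold more bases in DKO tumours, against 51.2% of all, and 1 was called towards SmoM2 tumours, against 20.0% of all. With so few stretches these acetylation counts are near the background and are no result about the locus. Neighbouring stretches share regions, so they are not replicates.

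The marked bases of SmoM2 tumours were nearly all marked in DKO tumours as well. At the Gli2 locus 52.8 of the 55.6 kb of H3K36me3 of SmoM2 tumours were shared, and these made up 44.9% of the bases of DKO tumours. Of the 48 DKO regions 22 overlapped a SmoM2 region (45.8%, 32.6–59.7%), against 68.9% over the whole list. Of the 47 SmoM2 regions 42 overlapped a DKO region, against 74.8%. Close regions of 1 list are not replicates, so the interval is too narrow to set the locus apart from the whole list. The widest DKO region, 120728721–120754604 (25.9 kb, fold enrichment 4.91), corresponded to 4 SmoM2 regions, the widest of them 120729412–120741218 (11.8 kb, 3.83). When regions at most 10 kb apart were joined, the DKO list had 1 domain of 182 kb at 120728721–120910604 and another of 22.2 kb at 120920654–120942810. The SmoM2 list had 6 domains, the 3 widest of 56.4 kb (120729412–120785839), 31.1 kb and 24.7 kb. Joining lowered the ratio of covered bases at Gli2 to 1.5, while that of the whole lists fell to 1.03.

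Both histone marks shared some bases at the Gli2 locus in DKO tumours and none in SmoM2 tumours. Of the H3K27ac bases of DKO tumours in this window, 20.5% (6.53 kb) lay in H3K36me3 regions of the same tumours, compared with 8.20% over the whole list. In SmoM2 tumours none of the 17.6 kb of H3K27ac did, compared with 5.14% over the whole list. At Gli1 the shares were 15.7% in DKO and 8.03% in SmoM2 tumours. All of these shares were below the share of the window that H3K36me3 itself covered. That was 36.7% in DKO and 17.4% in SmoM2 tumours at Gli2, and 38.7% and 35.7% at Gli1. The marks thus overlapped less than the H3K36me3 coverage of the windows. The wider H3K36me3 of the DKO list at Gli2 moves with the overlap there, and its part in it was not tested.

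The Gli3 locus was almost bare in both genotypes. H3K27ac covered 0.401 kb in SmoM2 (1 region) and 1.03 kb in DKO tumours (2 regions), 0.108% and 0.278% of the window, a ratio of 2.56 against 1.33. The SmoM2 region at 15555386–15555786 overlapped the DKO region at 15555643–15555971 by 144 bp. Both were weak, with a fold enrichment of 3.22 and 3.31 and a rank of 20358 of 21630 and 22107 of 29504 in their lists. The other DKO region, at 15850918–15851615 (698 bp, fold enrichment 3.14), had no SmoM2 counterpart. Of the 2 acetylated stretches of 10 kb, 1 had more bases in each genotype.

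H3K36me3 at the Gli3 locus covered 1.23 kb in SmoM2 (5 regions, 0.334%) and 7.64 kb in DKO tumours (7 regions, 2.07%). The ratio was 6.19, against 1.19 for the whole lists. With regions at most 1 kb apart joined it was 2.41, against 1.11, with those at most 10 kb apart 2.14, against 1.03, and with lists of equal length 16.2, against 1.28. The length-weighted mean fold enrichment was 3.01 for SmoM2 and 2.97 for DKO tumours. In DKO tumours the widest region was 15752393–15755828 (3436 bp), which contains 2 SmoM2 regions of 488 and 149 bp. The other marked positions, apart from 168 bp in DKO tumours at 15570548–15570715, lay between 15806093 and 15824141, with 0.597 kb in SmoM2 against 4.04 kb in DKO tumours. All 5 stretches of 10 kb with the mark had at least 1.5-fold more bases in DKO tumours, against 33.7% of all. In 2 of them SmoM2 tumours had no marked base, so any DKO base met the rule. The others held 0.213 to 0.637 kb in SmoM2 tumours. With so few and partly adjoining stretches, this count is no result about the locus. The histone region of this locus with the highest rank by −log10 q, 15823821–15824141 of DKO tumours, was at 24.5% of its list.

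Per length, the windows were ordered alike in both genotypes for H3K36me3. In SmoM2 tumours 35.7%, 17.4% and 0.334% of the Gli1, Gli2 and Gli3 windows were covered, and in DKO tumours 38.7%, 36.7% and 2.07%. These shares describe windows wider than the genes, and marks in the Gli1 window need not belong to Gli1. For H3K27ac the order of Gli1 and Gli2 changed, with 6.19% and 5.49% in SmoM2 and 6.93% and 9.95% in DKO tumours. Divided by the ratio of the whole lists, the H3K27ac ratios were 0.838 at Gli1, 1.36 at Gli2 and 1.92 at Gli3, and the H3K36me3 ratios 0.910, 1.77 and 5.19. With 1 list per genotype and mark, these differences between loci could not be tested.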

How the data were processed

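Gli2, H3K27ac and H3K36me3 ChIP-seq and input DNA of SmoM2 and DKO medulloblastomas gave 16 libraries, put into groups by their labelled genotype and antibody. The 4 input libraries have no list of their own here. The submitters' processing notes name build mm9 and the tools Trimmomatic 0.36, BWA, MACS2 and bedtools. Settings, the use of the input, and whether reads or peaks of the 2 libraries were merged are not given by any source used here. The labels' protocol also names an Olig2 antibody on the beads, so lists are called by the antibody of each sample's label. Per the labels, both libraries of a group share 1 deposited list. Fold enrichment, as deposited, is the ratio of a region's signal to the background of the peak caller, and significance (p and q) was deposited as −log10 values. These are the authors' own values for a region and rank it within its list only. A deposited score, equal to −log10 q multiplied by 10, was not used. Other columns the authors deposited give start, end and, for Gli2, summit.

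Analysis was limited to chromosomes 1 to 19, X and Y, leaving out 1 region. Overlap means at least 1 shared base, and covered bases were cut at the window edges. Shares have Wilson 95% intervals, which cover counting error only. Fragments at Gli2 summits were recovered from fold, taken as (fragments + 1) over (background + 1), and the Poisson p, within 0.01 of −log10 p. Interval functions and this recovery were tested on simulated data. Python 3.11.15 was used with pandas 2.3.3, numpy 2.4.6, matplotlib 3.10.9 and scipy 1.17.1. The members, lists and stretches were chosen with earlier results of these data known. All Gli2 peaks of a window were named, with the histone regions at them and the stretches of 10 kb that differed most in each direction. Other histone regions (the widest and highest of a window, all at Gli3) were named after their values were seen. The division into 4 parts, the stretches as long as a window and the overlap of both marks were added after seeing the data. No mm9 annotation was used, so other Hedgehog genes and cell type markers are not analysed here.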

Additional observations from a re-analysis of the deposited data

How the results depend on the processing

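Each alternative changed 1 choice, and of 71 values 8 moved by more than 1.5 times, none crossed 1 and 63 did neither. Of these 63, 14 were counts of 0 under a stricter rule, which could not change, and 3 came from a fold minimum that removed no region of the window, which leaves 46. Some of the 46 changed no base either, such as keeping only regions wholly inside the window at Gli2 and Gli3. The 46 are thus not all separate checks. With the DKO Gli2 list shortened to the 148 highest peaks, the Gli1 window held 0 and the Gli2 window 3 DKO peaks. With regions at most 10 kb apart joined, the H3K27ac ratio was 1.88 at Gli1 and 3.46 at Gli2, against 1.44 for the whole lists. The H3K36me3 ratio at Gli1 was 1.04 with this joining, against 1.03. As deposited, both Gli1 ratios lay below those of the whole lists, and after this joining both lay above them. The count of values that crossed 1 does not cover such changes. With regions under a −log10 q of 5 left out the H3K27ac ratio was 56.0 at Gli2 (0.39 kb in SmoM2 against 21.8 kb in DKO tumours), against 1.70 for the whole lists. That SmoM2 length was a single region with a −log10 q of 5.10, and the widest SmoM2 region fell under the limit at 4.64. At Gli3 the H3K36me3 ratio was 2.41 and 2.14 with regions joined within 1 and 10 kb and 16.2 with lists of equal length, against 1.11, 1.03 and 1.28 for the whole lists. The cause was not tested. No ratio could be formed with −log10 q of at least 5 for H3K36me3 in the 3 windows (0 kb in SmoM2 tumours, and 16.7, 25.9 and 0 kb in DKO tumours at Gli1, Gli2 and Gli3) and for H3K27ac at Gli3, or with lists of equal length for H3K27ac at Gli3, because 1 or both genotypes had no base left. At Gli1 the SmoM2 region matching the 16.7 kb of DKO tumours fell just under this limit, at 4.97. No paired analysis was possible because the 2 replicates of a group have 1 list together, which also kept single replicates from being left out. Read numbers are not stated, so a difference in depth between the lists cannot be told apart from a difference between the tumours.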
